A study of Mus musculus with 40 samples.

Results

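The unfolded protein response and the integrated stress response were followed here through 34 genes, chosen by symbol out of 20078 genes listed in any of 4 expression tables. The genes fall into 6 sensors and transcription factors, 15 chaperones and folding enzymes of the endoplasmic reticulum (ER) that are known targets of ATF6 and XBP1, 8 genes of ER-associated degradation, and 5 targets of ATF4. Sons and daughters of nicotine-exposed or control fathers, all of the inbred strain C57BL/6J, gave liver and gonadal white fat (gWAT, a depot next to the gonads). The control columns of the tables are headed DMSO. The labels give no ages and a single batch number. Of 40 labelled samples, 5 in each of 8 groups, 39 libraries were analysed, because male gWAT has 4 control columns that do not show which labelled sample each one is. Polyadenylated RNA was sequenced as tags from the 3′ ends of transcripts, and a library held 1543208 to 2239073 reads in genes.

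Proteins that misfold in the ER activate the sensors PERK, IRE1 and ATF6. Cleaved ATF6 and the spliced form of XBP1, which IRE1 produces, raise the chaperones, disulfide isomerases and degradation genes of the ER, while PERK and other kinases phosphorylate the initiation factor eIF2, slow translation and raise the protein ATF4, which turns on genes of amino acid supply and the factor CHOP. Liver depends on this system because hepatocytes secrete most plasma proteins, and adipocytes depend on it to secrete adipokines. The files measure RNA levels, so XBP1 splicing, ATF6 cleavage and ATF4 protein were not measured.

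Of the 34 genes, 32 had a row in all 4 tables and 28 passed a mean of 10 normalized counts in all 4. Asns had no row in female liver and Sesn2 none in either gWAT table. Under the minimum were Derl3, Chac1, Sesn2 and Ppp1r15a in female liver, Asns, Chac1, Sesn2 and Ppp1r15a in male liver, Sdf2l1, Derl3, Chac1 and Ppp1r15a in female gWAT, and Ppp1r15a in male gWAT. Genes tested numbered 29 in each female table, 30 in male liver and 32 in male gWAT. Values below are the authors' normalized counts, given for libraries 1 to 5 of a group in order, and a log2 change is nicotine minus control on a scale of log2(normalized count + 1), where changes of low genes come out too small. A gene is called where limma's adjusted p is under 0.05 over all genes of its table.

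Promoter sequences were searched for the elements known from these pathways. The ER stress response element, which ATF6 binds together with the factor NF-Y, was searched as CCAAT, 9 bases of any kind and CCACG on either strand in the 250 bases before each start site of RefSeq (GRCm38.p6), in which 30 of the 34 genes had an entry. It was found in 7 of 13 chaperone promoters (Hspa5, Hsp90b1, Calr, Canx, Pdia6, Dnajc3 and Creld2), in 2 of 8 promoters of 7 degradation genes (Syvn1 and Derl3), in 0 of 5 promoters of ATF4 targets and in 0.113% of all 32851 promoters of the same length. The shorter second element (ATTGG, 1 base and CCACG, either strand) was found in Herpud1 alone among these genes and in 0.0304% of all promoters. The composite site bound by C/EBP and ATF proteins (TGATG, 1 base and AA, either strand) was found in Asns, Chac1 and Herpud1 and in 3.45% of all promoters. The XBP1 element TGACG directly followed by TGG was found in none of them and in 0.563% of all promoters. The first and second elements share the piece CCACG, no 2 matches printed here overlap, and a match is a description of these letters, not a site shown to be bound. The stretches below carry the match of the 3 chaperones that fell in both female tissues, of the degradation genes Syvn1 and Herpud1, and of the ATF4 targets Chac1 and Asns. They run 5′ to 3′ along the gene with the fixed letters of each match in capitals.
Hspa5 (chr2:34772005-34772063, plus strand): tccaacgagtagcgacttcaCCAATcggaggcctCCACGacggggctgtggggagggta
Creld2 (chr15:88819500-88819558, plus strand): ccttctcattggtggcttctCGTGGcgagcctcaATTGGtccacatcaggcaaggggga
Pdia6 (chr12:17266471-17266529, plus strand): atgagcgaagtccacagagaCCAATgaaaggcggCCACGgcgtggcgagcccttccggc
Syvn1 (chr19:6046512-6046570, plus strand): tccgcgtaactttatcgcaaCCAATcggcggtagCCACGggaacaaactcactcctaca
Herpud1 (chr8:94386297-94386407, plus strand): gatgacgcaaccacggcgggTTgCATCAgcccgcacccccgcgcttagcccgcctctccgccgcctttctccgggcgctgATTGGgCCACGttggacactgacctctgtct
Chac1 (chr2:119351029-119351076, plus strand): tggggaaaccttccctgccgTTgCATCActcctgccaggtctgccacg
Asns (chr6:7693210-7693252, minus strand): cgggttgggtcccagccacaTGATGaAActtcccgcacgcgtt
Among the 30 genes searched, Herpud1 alone held both the second ER stress element and the C/EBP-ATF site in this window.

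Some libraries held transcripts of other tissues or stood apart, which bears on the results below. Hepatocyte markers (7 of 8 with a row) summed to 57545 to 99885 normalized counts in the liver libraries, and adipocyte markers summed to 28284 to 116754 in the gWAT libraries, so each labelled tissue held its defining markers. Skeletal muscle markers stood high in female liver control 4 and nicotine 5, male liver nicotine 4 and female gWAT control 2. Pancreatic markers stood high in male liver nicotine 2, and epididymis markers in male gWAT control 1 and nicotine 1. The labels do not tie samples to animals, litters or fathers, so the p-values speak of the spread among the samples alone, part of which may be technical. In bulk tissue fewer cells of a type and less RNA per cell cannot be told apart.

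Daughters of exposed and control fathers were compared first, in liver. In the nicotine group 5 of 29 tested genes fell (17.2%, against 1.67% of all tested genes) and 1 rose (3.45%, against 1.61%). The 5 were the chaperones and folding enzymes Hspa5, Creld2, Pdia6 and Hyou1 and the transcription factor Atf4, and the 1 that rose was the degradation gene Herpud1. Nicotine and control values did not overlap for 5 of the 29 genes (17.2%, against 4.73% of all tested genes). All 15 chaperones had a negative log2 change, from -1.13 to -0.04 with a median of -0.30, beside a median of 0.00 over all tested genes, and 4 of the 15 were called. The plot of log2 changes shows the whole set of genes in the 4 tables.

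**Figure D1:**
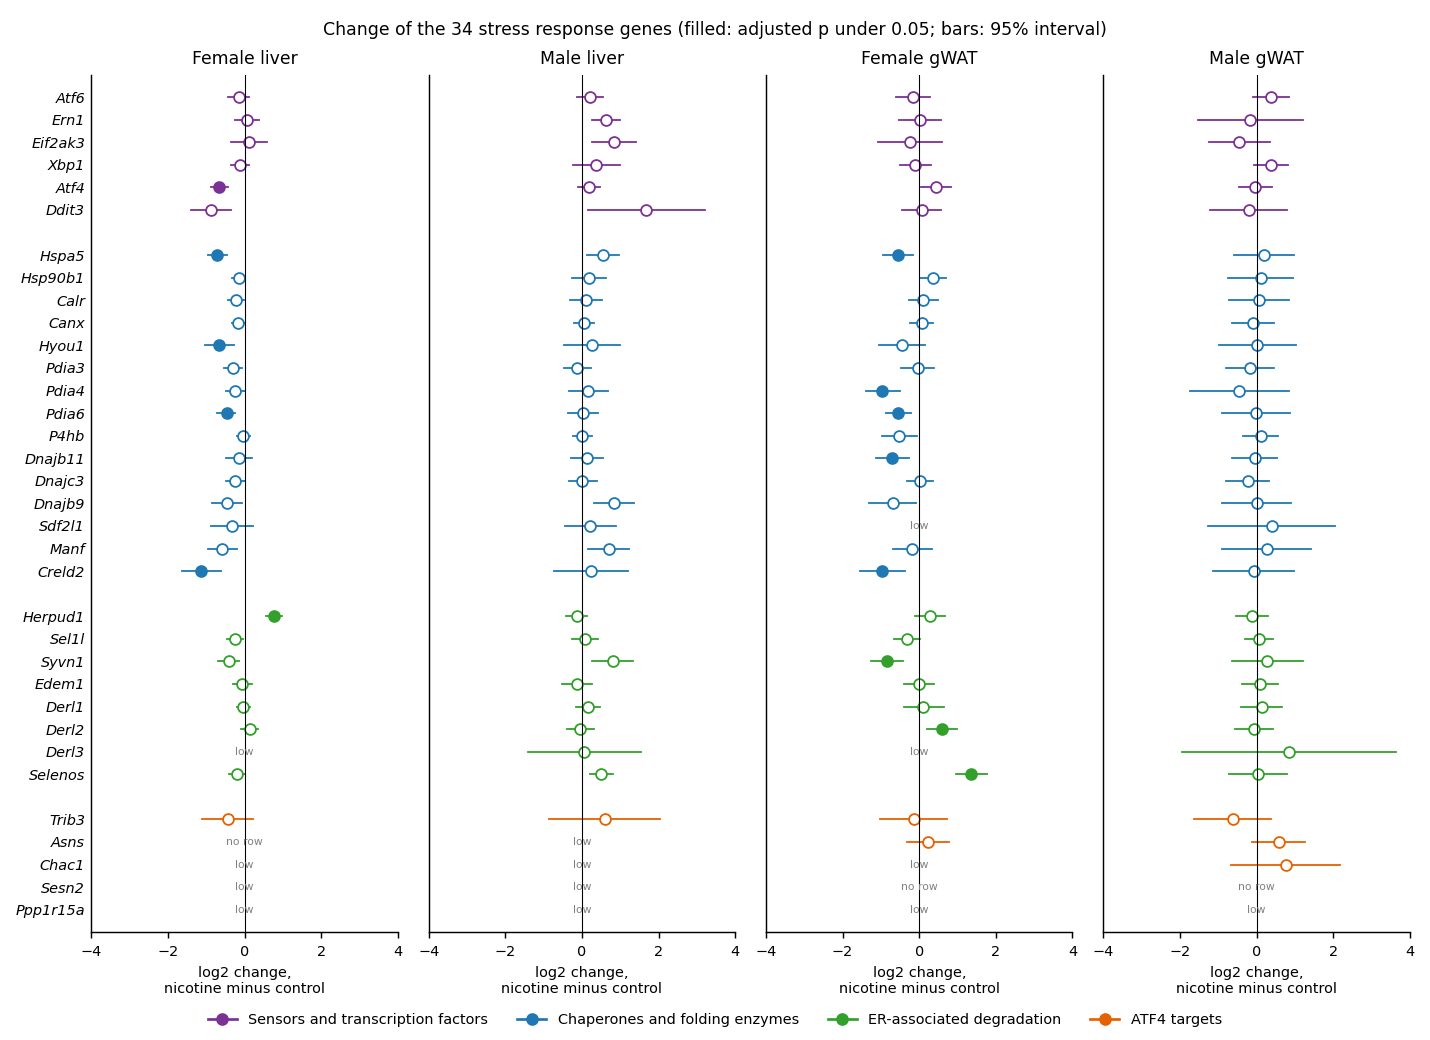
Log2 change (nicotine minus control, limma) of each of the 34 genes in the 4 tables, with 95% intervals as bars, grouped by role; filled points have an adjusted p under 0.05, "low" marks genes under the mean of 10 and "no row" genes without a row. In female liver all 15 chaperones lie left of 0 and Herpud1 right of 0; in male gWAT no gene is filled.

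Hspa5 encodes BiP, the main Hsp70 chaperone of the ER lumen, which also holds the stress sensors inactive. It read 3252, 3681, 2239, 2515 and 2355 normalized counts in the female liver controls and 1627, 1703, 1759, 1498 and 1819 in the nicotine libraries. Every nicotine library lay below every control, and controls 1 and 2 were the highest. The log2 change was -0.72 ± 0.12 (SE, n = 5 and 5; limma adjusted p = 0.00131), and the gene was called in all 20 alternatives. Creld2, an ER-resident protein with disulfide isomerase activity, had the largest decrease. Its control values were 59.2, 63.7, 29.7, 25.7 and 29.1 and its nicotine values 13.8, 17.1, 17.2, 17.4 and 20.7, again without overlap and again with controls 1 and 2 highest. Its log2 change was -1.13 ± 0.24 (SE; limma adjusted p = 0.0128).

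Pdia6, a protein disulfide isomerase, read 1163, 1395, 864, 978 and 1047 in the controls and 670, 868, 718, 762 and 874 in the nicotine libraries. Nicotine libraries 2 and 5 lay just above the lowest control, and the log2 change was -0.47 ± 0.11 (SE; limma adjusted p = 0.0228). Hyou1, the large Hsp70-related chaperone GRP170, read 129, 120, 69.1, 77.0 and 64.6 in the controls against 53.1, 55.2, 47.3, 56.7 and 66.1. Only nicotine library 5 reached the control range, and the log2 change was -0.66 ± 0.18 (SE; limma adjusted p = 0.0453). Both calls rest on single libraries: neither gene was called without any 1 of control 1, control 2 and nicotine 1, 3 and 4. Pdia6 was also lost without control 5, and Hyou1 without control 4 or nicotine 2.

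Hsp90b1, the ER form of Hsp90, carries 2 matches of the ER stress element but was not called. It read 1883, 2225, 1847, 1699 and 1667 in the controls and 1563, 1622, 1643, 1670 and 1811 in the nicotine libraries, which overlap, with a log2 change of -0.16 (95% interval -0.34 to 0.02; limma adjusted p = 0.344). Canx, the lectin chaperone calnexin, lay lower in every nicotine library (742 to 793) than in any control (799 to 907), but its log2 change of -0.17 was not called (limma adjusted p = 0.218). Manf, a secreted factor retained by BiP, had a log2 change of -0.58 (limma adjusted p = 0.0863). It was called lower by DESeq2 on whole reads recovered from the normalized counts and by limma without control 5, but not by edgeR. The authors' deposited table gave it an adjusted p of 0.0402. The cochaperone Dnajb9, a classical XBP1 target, had a log2 change of -0.46 (limma adjusted p = 0.203), and the remaining chaperones lay between -0.33 and -0.04. Summed over all 15 genes, the controls held 11336, 12703, 9105, 9269 and 9386 normalized counts and the nicotine libraries 7339, 7984, 8218, 7922 and 8839. The ranges of this sum did not overlap, and controls 1 and 2 were again the highest.

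Herpud1 encodes a membrane protein of the degradation complex. It read 1124, 1521, 1127, 986 and 1005 in the controls and 1825, 1880, 1988, 2100 and 1868 in the nicotine libraries. All nicotine libraries lay above all controls, although control 2, which was high for the chaperones, was also the highest control here. The log2 change was 0.76 ± 0.10 (SE; limma adjusted p = 0.000164), and Herpud1 was called in all 20 alternatives. The other tested degradation genes did not follow it: Syvn1, the ubiquitin ligase HRD1, had a log2 change of -0.42 (limma adjusted p = 0.0884), Sel1l, its partner, one of -0.26, Selenos, a selenoprotein of the same complex, one of -0.20, and Derl1, Derl2 and Edem1 lay between -0.06 and 0.13. None of these 6 was called.

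Atf4 read 210, 214, 188, 216 and 217 in the female liver controls and 132, 155, 105, 130 and 142 in the nicotine libraries. The 2 ranges are separated by a gap, and control 3 was the lowest control. The log2 change was -0.66 ± 0.11 (SE; limma adjusted p = 0.00123), and the call stood in all 20 alternatives. Ddit3, which encodes CHOP, read 21.4, 21.2, 20.1, 12.4 and 17.3 against 12.8, 9.51, 9.67, 7.63 and 8.26. Only control 4 fell within the nicotine range, and the log2 change of -0.88 (95% interval -1.39 to -0.36) missed the threshold with a limma adjusted p of 0.0583. Without control 4 or without nicotine 1, Ddit3 was called as lower. GENCODE M21 lists 2 gene models with the symbol Ddit3, and how its reads were assigned between them is not given in the sources used here.

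Trib3, a pseudokinase raised by ATF4 and CHOP, read 13.6, 15.4, 25.9, 36.1 and 20.9 in the controls and 19.7, 20.0, 24.7, 13.1 and 6.20 in the nicotine libraries, which overlap (log2 change -0.44, 95% interval -1.12 to 0.23; limma adjusted p = 0.514). It was the only ATF4 target tested in this tissue. Chac1, under the minimum, went the other way from Atf4, with 1.94, 5.79, 0.959, 1.90 and 0.00 against 6.88, 3.80, 4.30, 2.18 and 10.3. The 4 ATF4 targets with a row summed to 27.2 to 43.7 in the controls and 27.3 to 34.4 in the nicotine libraries, which overlap. Xbp1 read 293, 276, 246, 251 and 191 against 196, 237, 223, 226 and 257, with no call (log2 change -0.13; limma adjusted p = 0.583). Atf6, Ern1 (IRE1) and Eif2ak3 (PERK) had log2 changes of -0.16, 0.06 and 0.11, and none was called.

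Of 108 further genes of these pathways, 83 were tested in female liver, 4 fell (4.82%, against 1.67% of all tested genes) and 1 rose (1.20%, against 1.61%), with a median log2 change of -0.09. Bbc3, which encodes the cell death factor PUMA, had the lowest change, at -1.42 (control 123 ± 24.6 and nicotine 47.9 ± 20.7, SD, n = 5 each; limma adjusted p = 0.000912). Atf5, a relative and target of ATF4, changed by -0.83 (872 ± 170 to 488 ± 83.8; limma adjusted p = 0.00125). Tars1, a threonyl-tRNA synthetase, changed by -0.57, and Gdf15, a secreted hormone of cell stress, by -1.01 (limma adjusted p = 0.027 and 0.0483). Cebpb, the C/EBP factor that pairs with ATF4, changed by 0.46 (271 ± 30.3 to 375 ± 43.0; limma adjusted p = 0.0128).

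Other lists moved with the exposure in female liver. The 17 circadian clock genes, all with a row, summed to 978 to 1171 normalized counts in the controls and 1305 to 1559 in the nicotine libraries. The 7 endothelial markers, all with a row, summed to 688 to 736 and 503 to 603. Neither pair of ranges overlaps, and the part of either list in the chaperone and Atf4 results was not tested. Skeletal muscle markers (10 of 11 with a row, Pvalb without one) summed to 256 in control 4 and 398 in nicotine 5, against 0.00 to 28.5 in the other 8 libraries. Without those 2 libraries Hspa5, Creld2, Pdia6, Atf4 and Herpud1 were still called and Hyou1 was not.

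In the liver of sons no gene of the 34 was called with limma, of 30 tested (0.055% of all tested genes were called, 5 in number). 26 of the 30 log2 changes were positive, with a median of 0.18, beside a median of 0.00 over all tested genes. At an unadjusted p under 0.05 there were 8 genes, all higher with nicotine (26.7%, against 6.93% of all tested genes that were higher at this level): Ern1, Eif2ak3, Ddit3, Hspa5, Dnajb9, Manf, Syvn1 and Selenos. Groups overlapped for each of the 30, while 3.16% of all tested genes did not overlap. On whole reads recovered from the normalized counts, edgeR called none of the 34 (0.033% of all tested genes) and DESeq2 called Dnajb9, Ern1 and Selenos as higher (2.05% of all tested genes). In the authors' deposited table Selenos had an adjusted p of 0.0404 and Chac1 one of 0.0419 (1.46% of its genes with an adjusted p were under 0.05).

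Ern1, the sensor IRE1, read 52.4, 66.4, 77.1, 56.8 and 43.7 in the male liver controls and 89.7, 102, 103, 74.2 and 85.2 in the nicotine libraries. Only nicotine library 4 lay within the control range, and the log2 change was 0.62 (95% interval 0.26 to 0.98; limma adjusted p = 0.149). Selenos read 327, 325, 283, 278 and 344 against 486, 457, 319, 453 and 515. Only nicotine library 3 fell among the controls, and the log2 change was 0.50 (95% interval 0.20 to 0.81; limma adjusted p = 0.164). Dnajb9 read 52.4, 61.2, 34.6, 56.8 and 29.1 against 104, 79.8, 88.0, 48.6 and 99.9. Nicotine library 4 was again the exception, and the log2 change was 0.84 (95% interval 0.31 to 1.37; limma adjusted p = 0.177).

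Hspa5 read 2658, 3852, 2392, 2467 and 2484 in the male controls and 3091, 5226, 3530, 4969 and 3581 in the nicotine libraries. Control 2 lay among the nicotine values, and nicotine 2 and 4 were the highest of all. The log2 change was 0.55 (95% interval 0.14 to 0.96; limma adjusted p = 0.234). Hsp90b1 read 1672, 2634, 1387, 1536 and 1330 against 1446, 2516, 1920, 2289 and 1491, with control 2 the highest library (log2 change 0.19; limma adjusted p = 0.722). Syvn1 read 101, 168, 78.9, 109 and 67.2 against 143, 261, 218, 151 and 132, and control 2 was again the one control among the nicotine values (log2 change 0.81; limma adjusted p = 0.192). Manf read 154, 245, 91.3, 135 and 148 against 188, 310, 240, 320 and 174, so that control 2 exceeded nicotine 1, 3 and 5 (log2 change 0.70; limma adjusted p = 0.239). Herpud1 read 1777, 1597, 1678, 1701 and 1883 against 1318, 1922, 1514, 1518 and 1636, with overlapping ranges (log2 change -0.14; limma adjusted p = 0.659).

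Xbp1 read 330, 448, 348, 368 and 336 in the male controls and 247, 529, 921, 609 and 314 in the nicotine libraries. Nicotine 2, 3 and 4 lay above all controls and nicotine 1 and 5 below all of them (log2 change 0.37, 95% interval -0.24 to 0.98; limma adjusted p = 0.568). Atf4 read 163, 144, 178, 165 and 157 against 210, 169, 149, 178 and 217. Here the order was the opposite, with nicotine 1 and 5 the highest (log2 change 0.18, 95% interval -0.10 to 0.46; limma adjusted p = 0.551).

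The ATF4 arm split the male nicotine libraries further. Ddit3 read 4.94, 11.6, 10.6, 6.85 and 1.12 in the controls and 57.4, 12.4, 3.14, 20.5 and 70.4 in the nicotine libraries (log2 change 1.68, 95% interval 0.15 to 3.21; limma adjusted p = 0.308). Trib3 read 12.9, 12.7, 14.2, 19.6 and 16.8 against 113, 12.4, 9.43, 5.12 and 81.1 (log2 change 0.59, 95% interval -0.86 to 2.03; limma adjusted p = 0.726). In both genes nicotine 1 and 5 stood far above all other libraries. For Ddit3, nicotine 2 and 4 also lay above every control and nicotine 3 among them, while for Trib3 nicotine 2, 3 and 4 lay below every control. Asns, the asparagine synthetase, was under the minimum and read 0.00 to 2.24 in the controls and 6.62, 2.07, 1.05, 1.28 and 8.19 in the nicotine libraries, again highest in 1 and 5. Chac1, which degrades glutathione, was under the minimum too and differed from them, with 0.00 to 2.97 in the controls and 2.94, 12.4, 19.9, 7.68 and 5.73 in the nicotine libraries, highest in 2 and 3.

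On the scale of normalized counts, the summed chaperones and the summed ATF4 targets were high in different libraries. The 15 chaperones summed to 10078, 13555, 9036, 9728 and 10164 normalized counts in the male controls and 9243, 15221, 12255, 14859 and 10471 in the nicotine libraries, with nicotine 2, 3 and 4 and control 2 above the rest. The 5 ATF4 targets summed to 24.7, 22.1, 23.9, 28.4 and 28.0 in the controls and 140, 32.1, 37.7, 25.6 and 111 in the nicotine libraries, with nicotine 1 and 5 above the rest. Hspa5 and Trib3 make up much of these sums, and single genes departed from them: the chaperone Dnajb9 was highest in nicotine 1 and 5 and the ATF4 target Chac1 in nicotine 2 and 3. The plot of chaperone against ATF4 target sums shows both sets in each liver library. These libraries were singled out after their values were seen, and no test was made of them as a group.

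**Figure D2:**
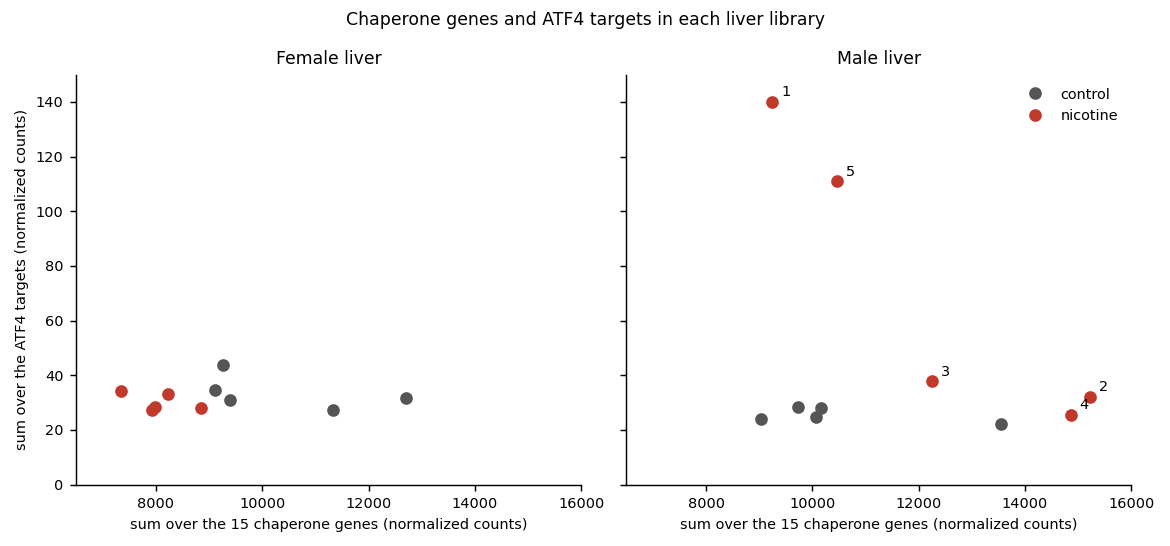
Sum of normalized counts over the 15 chaperone genes (x axis) and over the ATF4 targets (y axis; 4 with a row in female liver, 5 in male liver) in each liver library; grey points are controls, red points nicotine, and the numbers name the male nicotine libraries. Male nicotine 1 and 5 lie at 140 and 111 on the y axis with chaperone sums of 9243 and 10471, while nicotine 2, 3 and 4 lie to the right. The distances hold for normalized counts, and nicotine 1 and 5 had the highest size factors in male liver.

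Some genes of the ATF4 programme outside the 34 also had nicotine 1 and 5 on top. The genes shown were chosen after their values were seen, and how many others share this order was not counted. Slc7a11, the cystine transporter, was at 0.00 in all 5 male controls and read 105, 0.00, 1.05, 0.00 and 129 in the nicotine libraries. Psat1, a serine synthesis enzyme, read 0.00 to 4.89 in the controls and 39.0, 4.15, 3.14, 2.56 and 61.4. Gdf15 read 2.66 to 21.1 and 72.8, 13.5, 13.6, 32.0 and 115, and Fgf21, a hormone of liver, read 1.96 to 6.20 and 52.2, 0.00, 5.24, 7.68 and 23.7. None of the 87 further pathway genes tested in male liver was called with limma, 62 of them had a positive log2 change, and their median was 0.19.

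Nicotine 1 and 5 also differed from the other male libraries in genes outside the pathway. The 12 male-biased liver genes, all with a row, summed to 1354 and 2182 in these 2 against 9482 to 27450 in the other 8. The female-biased genes with a row (6 of 11) summed to 355 and 242 against 13.7 to 43.5, the 11 Kupffer cell and macrophage markers to 794 and 736 against 346 to 530, and the hepatocyte markers to 57545 and 58707 against 75930 to 93392. Pancreatic acinar markers (9 of 12 with a row) summed to 12225 in nicotine 2 against 27.8 to 138 elsewhere, and the 11 muscle markers to 8817 in nicotine 4 against 0.00 to 10.5. The acinar pancreas itself expresses ER chaperones strongly, and the part of these transcripts in the chaperone values of nicotine 2 was not tested. Without nicotine 1 and 5 limma called 6 genes and without nicotine 2 and 4 it called 54, and none of the 34 was among them in either case.

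For 7 genes the effect of the father's exposure differed between daughters and sons in liver. An interaction term over the 4 liver groups was called for 7 of 29 genes tested in both sexes (24.1%, against 1.56% of all genes tested in both). The female effect was the lower one for Hspa5, Atf4, Syvn1, Selenos, Dnajb9 and Manf and the higher one for Herpud1. Over the 29 genes 26 differences were negative with a median of -0.50, beside 0.01 over all genes. The sexes were compared by difference of changes only, since the tables were normalized separately.

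For Hspa5 the log2 change was -0.72 in females and 0.55 in males, a difference of -1.27 ± 0.23 (SE; 95% interval -1.75 to -0.79; limma adjusted p = 0.00566). For Herpud1 it was 0.76 and -0.14, a difference of 0.90 ± 0.16 (95% interval 0.56 to 1.24; limma adjusted p = 0.00566). These were called in all 28 alternatives. For Atf4 the difference was -0.84 ± 0.17 (limma adjusted p = 0.0097), lost in 1 of 28 alternatives, the one without female control 4 and nicotine 5 and male nicotine 1 and 5, where the adjusted p was 0.0519. Syvn1 differed by -1.23 ± 0.29, Selenos by -0.70 ± 0.17, Dnajb9 by -1.30 ± 0.33 and Manf by -1.28 ± 0.33, with limma adjusted p of 0.0333, 0.0409, 0.0466 and 0.0487. These 4 were called in 20, 14, 10 and 11 of the 28 alternatives, and leaving out any 1 of female control 1, 2 or 3, female nicotine 1 or 4, or male control 1 or 3 lost all 4 calls. Creld2 (-1.36, 95% interval -2.50 to -0.22; limma adjusted p = 0.221) and Ddit3 (-2.56, 95% interval -4.19 to -0.93; limma adjusted p = 0.105) had larger differences with wider intervals and were not called in the main fit. Ddit3 was called with edgeR and without male nicotine 3, and Pdia6 with quantile normalization. Without female control 4 and nicotine 5 and male nicotine 1 and 5, Creld2, Calr, Pdia6 and Xbp1 were called. In that fit Dnajb9 and Selenos were lost along with Atf4. All these added calls were lower in females. Beyond the 34 genes, the interaction was also called for Gdf15, at -3.13, and for Spcs2, a signal peptidase subunit, at -0.75 (limma adjusted p = 0.0267 and 0.0447). In female liver 83 further genes were tested, and 1.56% of all genes had a called interaction. The calls of Gdf15 and Spcs2 are therefore not read as a result about the pathway.

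**Figure D3:**
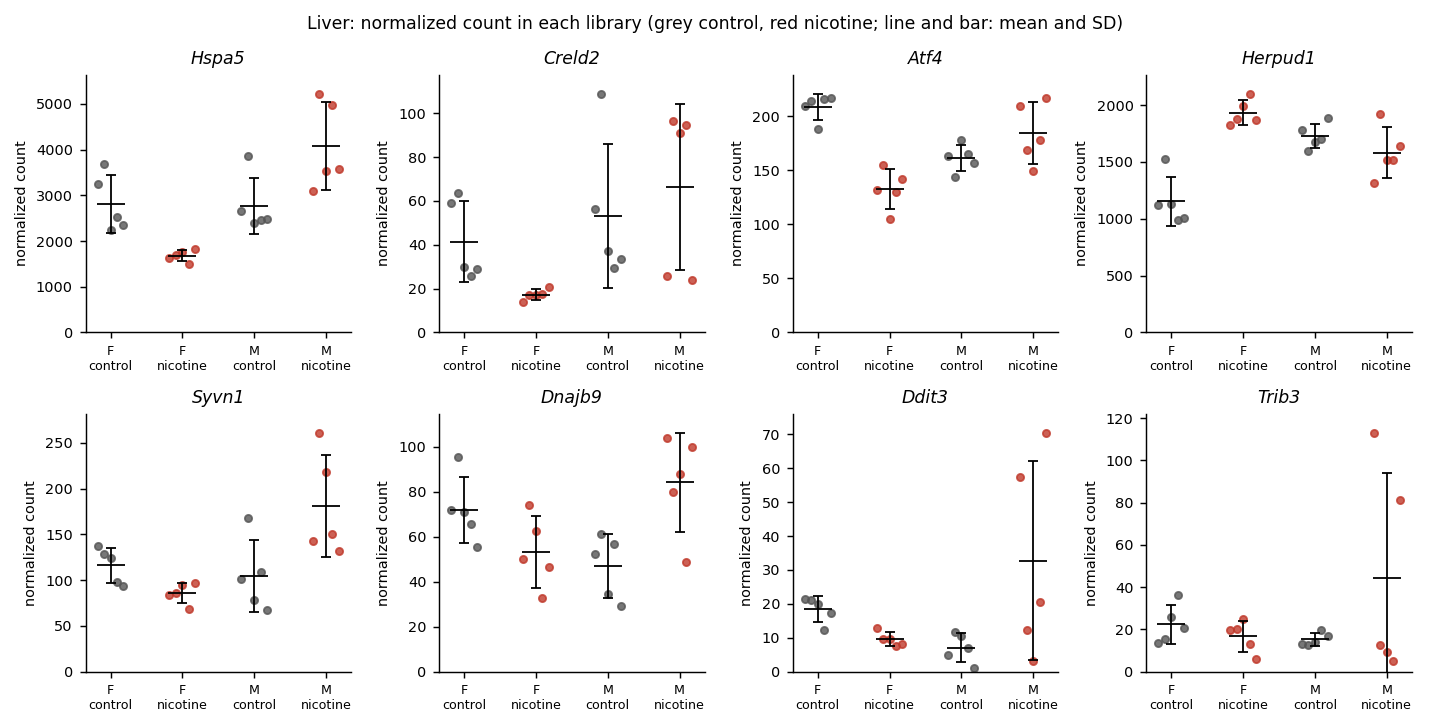
Normalized count of 8 genes in each liver library (y axes start at 0) for female (F) and male (M) control and nicotine groups of 5; the line is the mean and the bar 1 SD. Female nicotine libraries lie below the controls for Hspa5, Creld2 and Atf4 and above them for Herpud1, and 2 male nicotine libraries stand above the rest for Ddit3 and Trib3; the 2 sexes come from separately normalized tables.

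**Figure D4:**
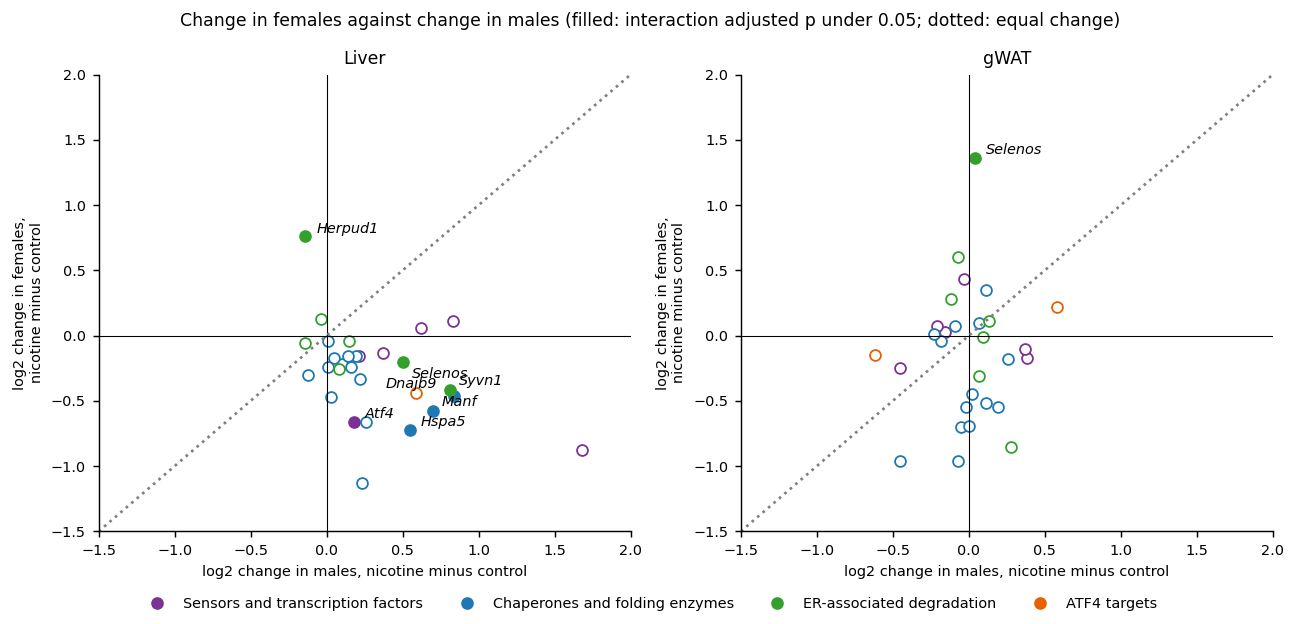
Log2 change in females (y axis) against males (x axis) for the genes tested in both, in liver and in gWAT, coloured by role; filled points have an interaction adjusted p under 0.05 and the dotted line marks equal change. In liver 26 of 29 genes lie below the line, with Herpud1 above it, and in gWAT Selenos is the only filled point.

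In the gWAT of daughters, 6 of 29 tested genes fell (20.7%, against 12.8% of all tested genes) and 2 rose (6.90%, against 12.4%), in a table where a large share of all genes changed. Nicotine and control values did not overlap for 5 of 29 (17.2%, against 16.7%), a share near that of all genes. The decrease was on the chaperone side: Hspa5, Pdia4, Pdia6, Dnajb11 and Creld2 fell, 5 of 14 tested chaperones (35.7%), whose median log2 change was -0.48 beside -0.03 over all tested genes. Syvn1 fell as well, and the degradation genes Selenos and Derl2 rose. Hspa5, Pdia6 and Creld2 were lower in both female tissues, 3 of the 5 genes lower in liver (60.0%) and of the 6 lower in gWAT (50%). Over all 8147 genes tested in both female tables, 24 were lower in both, 19.4% of those lower in liver and 2.46% of those lower in gWAT. Each of the 3 had a call that single libraries could undo in 1 of the tissues. In gWAT Hspa5 was near the threshold and Creld2 was lost without control 3 or control 4, as given below. In liver the Pdia6 call rested on single libraries, as given above. Whether liver and gWAT samples came from the same daughters is not stated in the labels.

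Pdia4, the largest of the common disulfide isomerases of the ER, read 127, 87.9, 91.7, 106 and 87.8 in the female gWAT controls and 41.3, 35.0, 63.6, 67.3 and 53.4 in the nicotine libraries. The groups did not overlap, and the log2 change was -0.96 ± 0.21 (SE, n = 5 and 5; limma adjusted p = 0.00491). Pdia6 read 754, 628, 559, 781 and 600 against 424, 405, 431, 484 and 519. These did not overlap either, and the log2 change was -0.55 ± 0.15 (limma adjusted p = 0.0175). Creld2 read 23.5, 33.0, 31.4, 33.9 and 17.4 against 9.17, 13.3, 13.6, 14.4 and 17.8. Nicotine 5 just exceeded control 5, and the log2 change was -0.96 ± 0.27 (limma adjusted p = 0.0202); without control 3 or control 4 the gene was not called.

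Dnajb11, a cochaperone of BiP, read 50, 66.0, 52.4, 68.7 and 57.1 in the controls and 28.7, 35.0, 32.7, 33.7 and 51.6 in the nicotine libraries. Nicotine 5 alone reached the control range, and the log2 change was -0.70 ± 0.20 (limma adjusted p = 0.0194). Hspa5 read 1426, 1335, 1078, 1409 and 1263 against 612, 801, 1172, 987 and 967. Nicotine 3 lay within the control range, and the log2 change of -0.55 ± 0.18 was close to the threshold (limma adjusted p = 0.0414). It was called in 7 of 19 alternatives and lost without any 1 of 8 libraries (control 1, 2, 4 or 5, nicotine 1, 2, 4 or 5), with adjusted p from 0.0161 to 0.103 over the alternatives. Sdf2l1, a component of the BiP complex, was under the minimum of 10 and read 13.7, 11.0, 10.5, 22.0 and 7.45 against 3.44, 2.42, 0.909, 2.40 and 4.69. Its groups did not overlap, and the authors' deposited table gave it an adjusted p of 0.00233. Of 15321 genes with an adjusted p there, 2903 were under 0.05. Fitted with no minimum, limma called Sdf2l1 as lower and Hspa5 was not called.

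Not all chaperones moved in that direction in female gWAT. Hsp90b1 read 436, 436, 470, 614 and 551 in the controls and 667, 590, 536, 778 and 624 in the nicotine libraries, overlapping at the upper controls, with a log2 change of 0.35 (95% interval 0.01 to 0.69; limma adjusted p = 0.117). Calr, Canx and Dnajc3 had log2 changes of 0.10, 0.07 and 0.01 and were not called. A match of the ER stress element was found in these 3 promoters and that of Hsp90b1 as well as in those of Hspa5, Pdia6 and Creld2. P4hb and Dnajb9 had log2 changes of -0.52 and -0.69 and were not called (limma adjusted p = 0.0857 and 0.0914). P4hb was called as lower without nicotine 5, and Dnajb9 without nicotine 4. Hyou1, Manf and Pdia3 had log2 changes of -0.45, -0.18 and -0.04.

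Selenos had the largest log2 change among the called genes of the 34 in the 4 tables. It read 145, 116, 128, 166 and 141 in the female gWAT controls and 318, 394, 295, 526 and 298 in the nicotine libraries. The groups were far apart, and the log2 change was 1.36 ± 0.18 (SE; limma adjusted p = 0.000284). Derl2, a Derlin of the retrotranslocation complex, read 84.3, 81.5, 57.6, 111 and 90.3 against 115, 149, 129, 121 and 121. The groups did not overlap, and the log2 change was 0.60 ± 0.18 (limma adjusted p = 0.0267), lost without control 3 or nicotine 2. Syvn1, which works in the same complex as Selenos and Derl2, read 88.2, 77.0, 97.8, 85.2 and 87.8 against 33.2, 67.6, 40.0, 55.3 and 50.6, without overlap and in the opposite direction (log2 change -0.85 ± 0.20; limma adjusted p = 0.0075). Herpud1, which rose in the liver of daughters, read 256, 380, 197, 266 and 249 against 345, 302, 310, 270 and 389 here and was not called (log2 change 0.28, 95% interval -0.10 to 0.67; limma adjusted p = 0.263).

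The transcription factors and ATF4 targets that passed the minimum gave no call in female gWAT in the main fit. Atf4 read 198, 264, 145, 157 and 152 in the controls and 266, 227, 211, 270 and 236 in the nicotine libraries, overlapping through controls 1 and 2 (log2 change 0.43, 95% interval 0.05 to 0.82; limma adjusted p = 0.0918). Without control 2, the library high in muscle markers, Atf4 was called as higher, in this alternative alone. Xbp1 read 215, 170, 142, 238 and 147 against 193, 142, 129, 206 and 175, and Ddit3 read 33.3, 17.4, 25.3, 24.7 and 24.0 against 29.8, 32.6, 27.3, 22.8 and 18.8. Both pairs of ranges overlap broadly, with log2 changes of -0.10 and 0.07 (limma adjusted p = 0.729 and 0.85). Trib3 read 14.7, 6.41, 11.4, 12.8 and 7.45 against 17.2, 7.25, 6.36, 10.8 and 6.56 (log2 change -0.15; limma adjusted p = 0.814). Asns read 36.3, 23.8, 28.8, 21.1 and 19.0 against 35.5, 30.2, 38.2, 18.0 and 30.0 (log2 change 0.22; limma adjusted p = 0.553). Chac1 was under the minimum and went from 19.6, 12.8, 6.99, 7.33 and 1.66 to 1.15, 1.21, 1.82, 1.20 and 0.938, and the authors' deposited table gave it an adjusted p of 0.0039. Fitted with no minimum, limma called Chac1 as lower.

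Of the 108 further pathway genes, 90 were tested in female gWAT, 14 fell (15.6%) and 12 rose (13.3%), with a median log2 change of -0.10. These shares are near those of all tested genes, 12.8% and 12.4%. Sec61g, Ssr2 and Spcs1, which serve protein entry into the ER, were among those that fell, while Sec62, Sec63, Ssr1 and Ssr3 were not called. The log2 change was -1.79 ± 0.26 for Sec61g, a translocon subunit (SE; 78.3 ± 27.7 to 21.6 ± 6.14, SD; limma adjusted p = 0.000453), -1.21 for Ssr2, a translocon-associated protein, and -1.07 for Spcs1, a signal peptidase subunit. Among those that rose were Cars1, a cysteinyl-tRNA synthetase, by 1.59 ± 0.23 (10.8 ± 1.90 to 34.4 ± 4.07; limma adjusted p = 0.000485), Eprs1, a glutamyl-prolyl-tRNA synthetase, by 0.89, and Eif2b5 and Eif2b3, subunits of the exchange factor that phosphorylated eIF2 inhibits, by 1.18 and 1.17. Crebrf, a regulator of ER stress signalling, rose by 0.83. In the list of degradation and translocation genes 7 of 23 fell (30.4%) and 1 rose (4.35%), and in the list of ER stress signalling genes 2 of 18 fell (11.1%) and 5 rose (27.8%). In the list of ATF4 amino acid and tRNA synthetase genes 2 of 24 fell and 2 rose (8.33% each). Of the ER folding and oxidation genes 1 of 12 fell (8.33%) and 2 rose (16.7%). Of the ATF4 and CHOP regulators and secreted targets 2 of 13 fell and 2 rose (15.4% each).

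Other quantities moved with the exposure in female gWAT. The mitochondrial ribosomal RNAs mt-Rnr1 and mt-Rnr2 summed to 122918 to 235355 normalized counts in the controls and 362938 to 739068 in the nicotine libraries, 3.08 times the control mean. Macrophage markers (10 of 11 with a row, Clec4f without one) summed to 508 to 991 and 146 to 315, and the 17 clock genes to 768 to 1114 and 1120 to 1476. None of these ranges overlap. The 7 fibroblast and progenitor markers, all with a row, summed to 4050 to 8350 in the controls and to 6102, 1969, 1925, 1850 and 3517 in the nicotine libraries, 4 of which lay below every control. The part of these lists in the results was not tested. Plasma cell and B cell markers (5 of 9 with a row) summed to 35.7 to 76.4 and 12.1 to 65.6. Muscle markers summed to 33929 in control 2 and to at most 1849 elsewhere, and without control 2 Hspa5 was not called while the other 7 genes were. Atf4 was then called as higher.

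**Figure D5:**
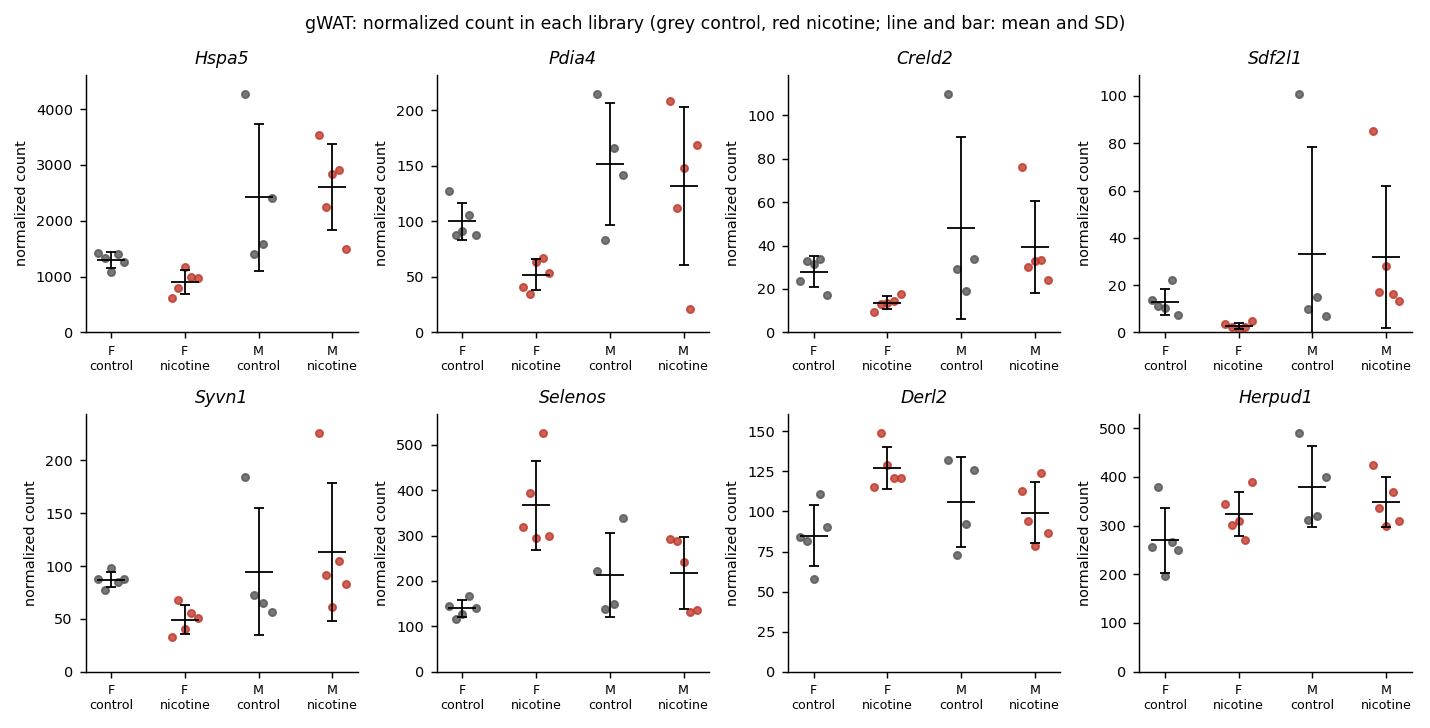
Normalized count of 8 genes in each gWAT library (y axes start at 0) for female (F) and male (M) control and nicotine groups, 5 libraries each except 4 for male controls; the line is the mean and the bar 1 SD. Female nicotine libraries lie below the controls for Pdia4, Sdf2l1 and Syvn1 and above them for Selenos and Derl2; in males 1 control and 1 nicotine library stand above the rest for Creld2, Sdf2l1 and Syvn1.

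In the gWAT of sons none of the 32 tested genes was called and none had an unadjusted p under 0.05 (1.62% of all tested genes did). limma called 0.0% of all tested genes, and so did edgeR and DESeq2 on the recovered reads (0.0% each). Nicotine and control values overlapped for all 32 genes, while 0.731% of all tested genes did not overlap. The median log2 change of the 32 genes was 0.03. The 3 genes of smallest p were Asns, Xbp1 and Atf6, with log2 changes of 0.58 (95% interval -0.11 to 1.26), 0.37 (-0.07 to 0.82) and 0.38 (-0.08 to 0.85), each with a limma adjusted p of 1.00. Intervals were wide: for Hspa5 the log2 change was 0.19 with a 95% interval from -0.60 to 0.99. That interval holds the change called for Hspa5 in female gWAT but not the one called in female liver.

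A pair of libraries stood above the others. Hspa5 read 4279, 1409, 1592 and 2403 in the 4 male controls and 3535, 2246, 2843, 2905 and 1503 in the nicotine libraries, and Hsp90b1 read 1529, 480, 519 and 733 against 1487, 830, 667, 681 and 525. Sdf2l1 read 101, 10.0, 15.0 and 6.95 against 85.0, 16.9, 28.1, 16.3 and 13.3, and Ern1 read 107, 34.6, 13.0 and 45.2 against 118, 20.7, 24.2, 37.2 and 21.3. In each of these 4 genes the control in the first column and nicotine 1 were the highest libraries. The 15 chaperones summed to 14123 and 11601 in these 2 against 5025 to 8239 in the other 7. The 9 epididymis markers, all with a row, summed to 30647 and 22904 in these 2 against 38.2 to 5423 elsewhere, and the part of these transcripts in the chaperone values was not tested. Without the 2 libraries none of 31 tested genes was called.

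The remaining genes named for every comparison showed no such pattern. Atf4 read 306, 249, 237 and 266 in the male gWAT controls and 216, 266, 282, 348 and 204 in the nicotine libraries, Xbp1 read 159, 138, 146 and 235 against 188, 263, 223, 228 and 181, and Ddit3 read 22.6, 34.6, 28.0 and 13.0 against 29.0, 18.8, 35.8, 22.7 and 6.67. All overlap. Trib3 read 11.8, 18.2, 24.0 and 5.21 against 10.8, 8.47, 7.74, 9.06 and 5.33, and Asns read 15.4, 12.7, 37.0 and 29.5 against 32.3, 38.6, 31.9, 33.5 and 28.0. Of the 94 further pathway genes tested in male gWAT none was called, with a median log2 change of 0.08.

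The interaction in gWAT was called for 1 of 29 genes (3.45%, against 8.87% of all genes tested in both sexes). Selenos changed by 1.36 in females and 0.04 in males, a difference of 1.32 ± 0.38 (SE; 95% interval 0.52 to 2.12; limma adjusted p = 0.0379), and the call was lost without any 1 of female control 1, 2 or 3, female nicotine 2 or 4, the fourth male control column, or male nicotine 4 or 5. In liver the sex difference of Selenos had the opposite sign. For Hspa5 the gWAT difference was -0.74 (95% interval -1.56 to 0.08; limma adjusted p = 0.245) and for Syvn1 -1.12 (95% interval -2.07 to -0.18; limma adjusted p = 0.12), neither of them called. Without the first male control column, rich in epididymis transcripts, Creld2, Dnajb11, Pdia6 and Syvn1 were called, each lower in females. Without that column and male nicotine 1, Syvn1 was called and the other 3 were not. Leaving out any other single library added no call. Among the further pathway genes Cars1, Spcs1, Ssr2, Eif2b5, Eprs1, Crebrf and Eif2ak4 (the amino acid sensing eIF2 kinase GCN2) had a called interaction in gWAT. In female gWAT 90 further genes were tested, and 8.87% of all genes had a called interaction. The calls of these further genes are therefore not read as a result about the pathway.

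As a level across the tables, the 34 genes together took 7010 ± 915 CPM (reads of each 1000000 in a library) in female liver controls, 7700 ± 895 in male liver controls, 3886 ± 302 in female gWAT controls and 5966 ± 2288 in male gWAT controls (SD, n = 5, 5, 5 and 4). In the nicotine groups they took 6243 ± 311, 9552 ± 793, 2932 ± 411 and 5930 ± 1493. These are shares of all reads recovered from separately normalized tables and were not tested, and in female gWAT mitochondrial ribosomal RNA took a larger share with nicotine, as given above. Hspa5 took 1416 ± 299 and 1460 ± 314 CPM in the female and male liver controls, 788 ± 82.3 in female gWAT controls and 1398 ± 710 in male gWAT controls. The liver values of the sexes lie within their spread, and the highest male gWAT control, at 2378 CPM, was the one rich in epididymis transcripts.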

How the data were processed

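The authors deposited 1 table per tissue and sex of DESeq2 normalized counts (a signal: read counts divided by a size factor per library) with, per the file headers, their log2 fold change, p-value and adjusted p-value. Tools named by the submitters' processing notes are cutadapt, STAR and DESeq2, with the genome build mm10 and no versions. How reads were counted, with which annotation and strand setting, is not given in the sources used here, so reads of overlapping genes cannot be told apart: another gene in the tables overlaps the last 2000 bases of 6 of the 34 genes (Hsp90b1, Pdia6, Dnajb11, Manf, Syvn1 and Ppp1r15a) in GENCODE M21. The 4 male gWAT control columns carry no link to a labelled sample and were used as 4 replicates, where the design assumed 5.

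Dividing each column by the value of 1 read gave back whole reads (100% of values whole within 0.1 read). Each table was tested with limma 3.58.1 (R 4.3.3) on log2(normalized count + 1), with a mean trend, on genes whose mean was at least 10, and p-values were adjusted by Benjamini-Hochberg over all tested genes with a threshold of 0.05. The sex difference was an interaction term fitted to the 4 groups of each tissue. Intervals are 95% intervals of limma. Alternatives were pseudocounts of 0.5 and 5, no filter, a mean of 50 or more, quantile normalization, library weights, edgeR 4.0.16 and DESeq2 1.42.0 on the recovered reads, a block for the replicate number, and fits without single libraries or pairs of them; those without male liver nicotine 2 and 4 and without male gWAT control 1 and nicotine 1 were added after seeing the data. Tables were handled with Python 3.11.15, pandas 2.3.3, NumPy 2.4.6 and matplotlib 3.10.9. The code was tested on simulated data.

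The 34 genes, the other lists and the libraries left out were chosen with earlier results of these data known. Full values are given for genes called in a comparison or its interaction, the 3 of smallest p where fewer than 3 were called, and Hspa5, Hsp90b1, Xbp1, Atf4, Ddit3, Trib3 and Asns where tested; further pathway genes were named when called, at most 8 per comparison by smallest p. Same-numbered libraries were not treated as pairs, because their deviations from the group means did not correlate. No 2 libraries of the same group agreed within sampling noise, and pairs across groups were not compared.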

Additional observations from a re-analysis of the deposited data

Results flagged for a closer look

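In liver the effect of the father's exposure differed between the sexes by the interaction test for 7 of 29 tested genes (24.1%, against 1.56% of all genes). The female minus male difference of the log2 changes was -1.27 for Hspa5, -0.84 for Atf4, -1.23 for Syvn1, -0.70 for Selenos, -1.30 for Dnajb9, -1.28 for Manf and 0.90 for Herpud1. The calls of Syvn1, Selenos, Dnajb9 and Manf were lost without any 1 of 7 single libraries. In gWAT it was 1.32 for Selenos, the 1 gene of 29 called there (3.45%, against 8.87% of all genes). Selenos, a gene of ER-associated degradation, thus had differences of opposite sign in the 2 tissues, but the liver call was lost in 14 of 28 alternatives and the gWAT call without any 1 of 8 libraries.

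A single library lay apart from the other libraries of its group in 6 of 98 groups of values examined, and chance alone flags about 1 in 20. In female liver these were Atf4 in control 3 (188 normalized counts) and Herpud1 in control 2 (1521). In male liver control 2 stood above the other controls for Hspa5 (3852) and Hsp90b1 (2634). In female gWAT nicotine 5 stood above the others for Dnajb11 (51.6), and in male gWAT nicotine 1 did so for Atf6 (89.3).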

How the results depend on the processing

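Over the alternatives run, no called change of a single gene of the 34 turned its sign. Female liver gave 301 called genes and 181 without control 4 and nicotine 5. Leaving out 1 library gave 185 to 329 called genes with 3 to 5 of the 34 lower and 1 higher in female liver, and 0 to 16 called genes with 0 of the 34 in male liver. It gave 1954 to 2768 called genes with 4 to 6 lower and 1 to 3 higher in female gWAT, and 0 in male gWAT. The interaction was then called for 3 to 8 of the 34 genes in liver and for 0 to 5 in gWAT. In male liver 5 genes were called, against 0 with a mean of 50 or more, 3 with edgeR, 186 with DESeq2, of which 3 were among the 34, and 54 without nicotine 2 and 4. The liver interaction was called for 4 of the 34 with no filter, and the gWAT interaction for 2 without male control 1 and nicotine 1. With no filter 2624 genes were called in female gWAT, with 7 of the 34 lower and 2 higher. Chac1 and Sdf2l1 were added there and Hspa5 was lost. Same-numbered libraries did not deviate together (correlations from -0.277 to 0.173, and in 1 of 15 pairs a library correlated best with its own number). With the replicate number as a block 341 genes were called in female liver, 0 in male liver and 2011 in female gWAT, with 1 of the 34 higher and 4 lower there (Derl2, Hspa5 and Pdia6 were not called). No block was fitted in male gWAT, where the numbers of the 4 control columns could not be tied to the 5 labelled samples. At this depth a gene at 10 normalized counts rests on few reads, and 2 to 5 of the 34 genes per table were not tested.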
